A study of Homo sapiens with 15 samples.

Results

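HCT116 cells treated with the hybrid compound SARB were compared directly with HCT116 cells treated with thymoquinone (TQ) alone, over the 730 endogenous genes of a cancer pathway panel. SARB was given at 35 µM and TQ at 40 µM, both for 24 h, and each group had 3 samples that the series' design text calls biological replicates. These 6 of the 15 samples of the series were chosen by their labels, which also place all 6 on 1 NanoString cartridge, and all 730 genes entered the comparison. Untreated control cells and cells given 15 µM 5-fluorouracil (5-FU) for the same time, with 3 samples each, serve as reference levels, and a mixture of TQ and 5-FU, at 35 µM each, that the study calls Combi entered the fit only. All samples came from the same line, HCT116, an established human colorectal cancer line, grown in RPMI medium with serum.

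TQ is the main active component of black seed oil, a quinone that reacts with cellular thiols. 5-FU is a pyrimidine analogue long used against colorectal cancer, which blocks thymidylate synthase and is incorporated into RNA and DNA, and which thereby damages DNA. SARB joins both molecules through an ester, so that SARB and TQ differ in structure by the added 5-FU part and its linker. The comparison asks how cells given the hybrid differ from cells given its quinone component. The doses differ between the groups, so compound and dose cannot be told apart.

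The NanoString assay captures each transcript with a pair of probes that carries a colored barcode, and counts the barcodes without amplification. Scaled counts below are raw barcode counts divided by a factor per sample that makes the geometric mean of the 40 housekeeping genes equal in all samples. Total counts over the 730 genes were 135017 to 513114 in the TQ samples and 226357 to 568343 in the SARB samples, and 219 to 344 genes per sample had fewer than 20 counts. Across the 407 genes with a mean of at least 50 scaled counts, log2 values of samples of the same group gave a Pearson r of 0.974 to 0.990 over genes, and a TQ with a SARB sample gave 0.889 to 0.923. The 8 negative control probes averaged 12.1 counts in SARB replicate 2 and 3.12 to 7.12 in the other 5 samples, so a gene needed 32.9 scaled counts to pass background in SARB replicate 2 and 5.43 to 15.3 in the others. Background here is the mean plus 2 standard deviations of the negative probes. All 10 epithelial genes on the panel were above background in all 6 samples. Of 14 markers of blood, stromal, endothelial and other non-epithelial cells, 2 were above background in all 6 samples and 5 in none, with a summed level of 151 to 282 scaled counts in TQ and 242 to 462 in SARB.

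Calls rested on edgeR's quasi-likelihood test and needed both an adjusted p (Benjamini-Hochberg) no higher than 0.05 and a difference of 1.5-fold or more. By this rule 101 genes were higher in SARB (13.8% of 730) and 41 were lower (5.62%). Of these, 43 were at least 2-fold higher and 18 at least 2-fold lower, and 6 were higher and 5 lower by at least 4-fold. All 3 SARB samples lay above all 3 TQ samples in 171 genes (23.4%) and below them in 100 genes (13.7%), and 5 of the called genes were not separated in this way. The median log2 fold change over all 730 genes was 0.18, but 0.00222 without SARB replicate 2, 0.0204 without TQ replicate 2 and 0.40 without SARB replicate 3. It was 0.10 for genes with a mean of at least 50 scaled counts and 0.35 for the 323 genes under it. With TMM normalization, which assumes that most genes do not differ, the median was 0.07 and the split was 80 higher and 59 lower. With the size factors of DESeq2 it was 70 higher and 61 lower. Fold changes are stated relative to the housekeeping genes.

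The untreated control gives a reference level, with limits for low genes. Of its 3 samples, 2 ran on another cartridge than the TQ and SARB samples, and a gene needed 21.6, 39.9 and 41.9 scaled counts to pass background in control replicates 1, 2 and 3. Among the 101 genes higher in SARB, the control mean lay between the TQ and SARB means in 68, above both in 15 and below both in 18. Among the 41 genes lower in SARB, it lay above both in 21, between them in 18 and below both in 2. Over all 730 genes the control lay above both in 64.0%, between them in 24.4% and below both in 11.6%, against 48.4%, 33.9% and 17.7% of the 407 genes with a mean of at least 50 scaled counts. The part of background and cartridge in these positions was not tested.

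**Figure D1:**
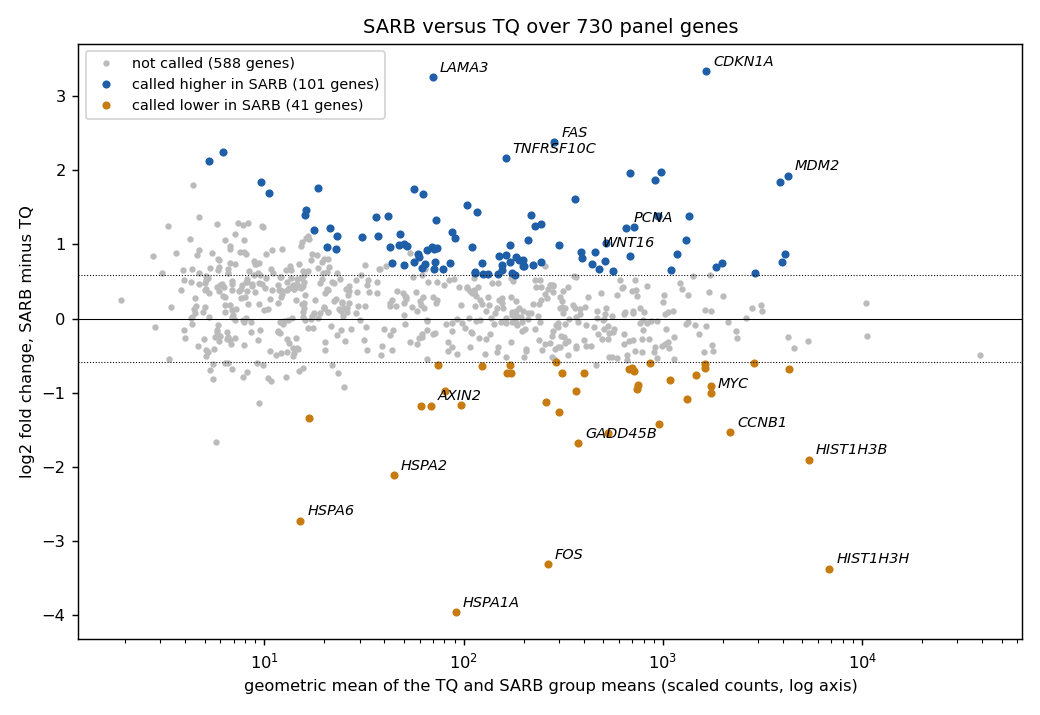
Log2 fold change of SARB minus TQ (vertical axis) against the geometric mean of the TQ and SARB group means in scaled counts (horizontal log axis) for the 730 genes, with the 101 genes called higher in blue, the 41 called lower in orange and dotted lines at a fold of 1.5. CDKN1A, LAMA3 and FAS stand highest, and HSPA1A, HIST1H3H and FOS lowest.

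Genes known to be induced by DNA damage, called damage-induced genes here, made up much of the upper end. The cell answers such damage by activating genes of cell cycle arrest, repair and apoptosis. The panel holds 16 of these genes, of which 11 were called higher in SARB and 0 lower (68.8% higher, against 13.8% of all genes). These genes had a median log2 fold change of 1.30 against 0.18 over all genes. Their summed level was 9132 to 9403 scaled counts in the TQ samples and 29421 to 31320 in the SARB samples.

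CDKN1A encodes p21, the inhibitor of cyclin-dependent kinases that stops the cell cycle after DNA damage. Its scaled counts were 526, 536 and 496 in TQ and 4199.6, 6021 and 5560.0 in SARB, against 1004 ± 304 in control (SD, n = 3) and 4542 ± 951 in 5-FU. Every SARB sample thus lay far above every TQ sample, and the TQ samples lay below the control mean. The log2 fold change was 3.34 (standard error 0.19), or 10.1-fold, with an adjusted p of 1.17e-11.

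MDM2, a ubiquitin ligase that restrains the damage response and is itself induced by it, had 2211, 2106 and 2179 scaled counts in TQ and 8841, 7678 and 8187 in SARB. The groups were clearly apart, with TQ close to the control mean of 1864 ± 192 and SARB close to the 5-FU mean of 7742 ± 204. The log2 fold change was 1.93 (standard error 0.10) with an adjusted p of 1.17e-11. SFN encodes 14-3-3 sigma, which holds cells at the border of mitosis, and had 1944, 2027 and 2195 scaled counts in TQ and 7774, 7839 and 6427 in SARB. Its control mean was 1170.4 ± 102, below all 6 samples, so that the TQ samples stood between control and SARB. The log2 fold change of SFN was 1.84 (adjusted p = 1.34e-11). DDB2, which recognizes damaged bases for nucleotide excision repair, had 397, 335 and 310.4 in TQ and 1474, 1346 and 1223 in SARB, again without overlap, and a log2 fold change of 1.96.

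PCNA, the sliding clamp of DNA polymerases, had 414, 422 and 445 scaled counts in TQ and 825, 1277 and 899.6 in SARB (log2 fold change 1.22, adjusted p = 1.50e-05). The control mean of 694 ± 78.2 lay between the groups. EPHA2, an ephrin receptor kinase, and PML, the scaffold of nuclear bodies, had log2 fold changes of 1.38 and 0.99. Of the 5 damage-induced genes that were not called, GADD45A (-0.05 to 0.50) and TNFRSF10D had 95% intervals of the log2 fold change within a 1.5-fold difference in either direction. TNFRSF10A had a log2 fold change of 0.43, IGFBP3 of 0.36 and THBS1 of -0.37, none of them past the threshold. The count of 11 of 16 was the same in all 18 alternative settings.

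**Figure D2:**
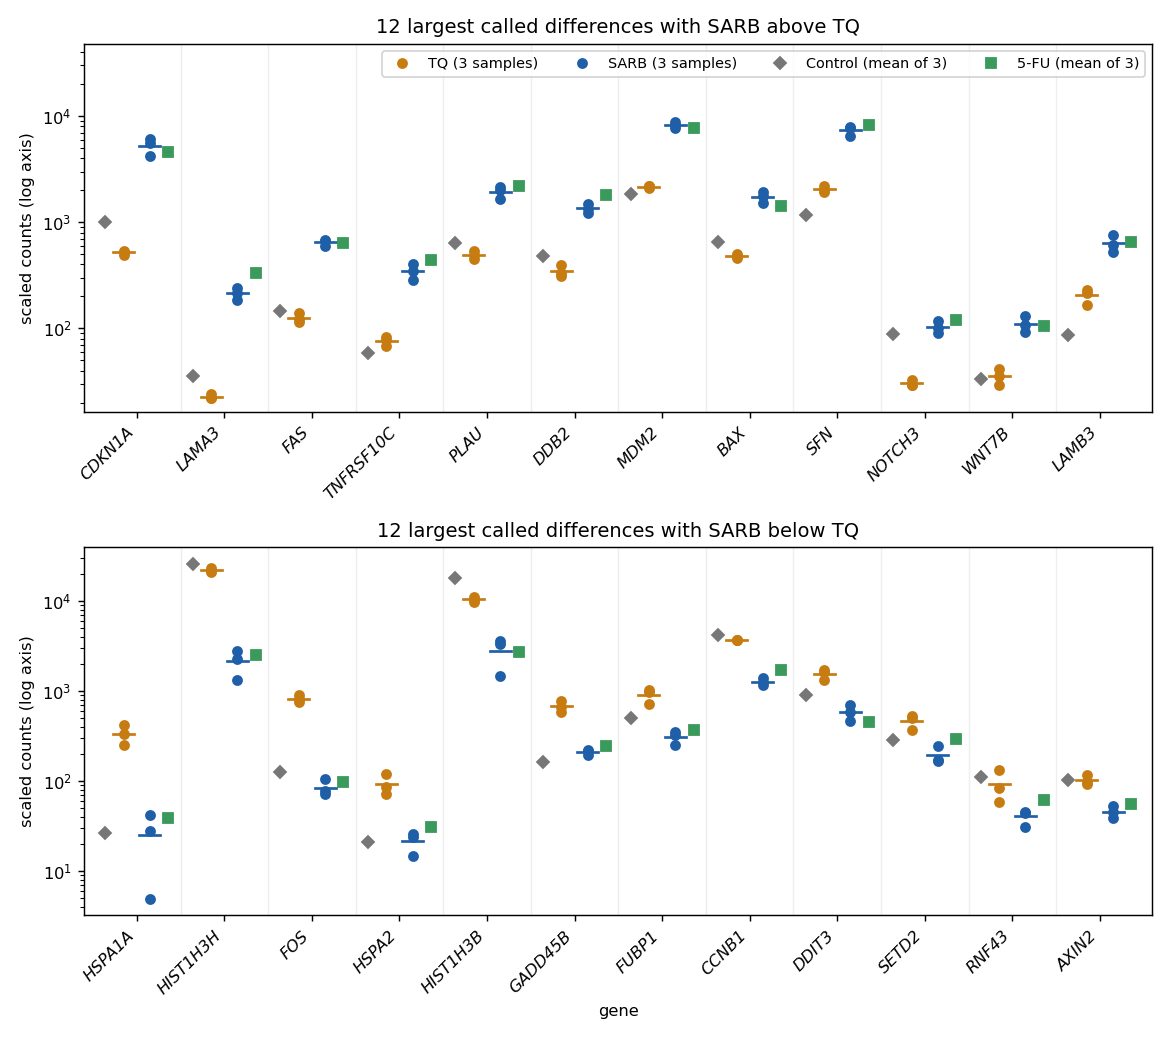
Scaled counts on a log axis for 12 genes called higher (top) and 12 called lower (bottom). They have the largest log2 fold changes among called genes with separate groups and a mean of at least 50 scaled counts in the higher group. Each TQ and SARB sample is a dot, and their group means are short lines. The control mean is a grey diamond and the 5-FU mean a green square. Separate SARB and TQ dots were a condition for showing a gene, and the single low SARB dot of HSPA1A is replicate 3.

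FAS, TNFRSF10C and TNFRSF10B, 3 genes of death receptors, were higher in SARB. All 3 are also among the damage-induced genes counted above, so these calls are not a separate set. Death receptors on the cell surface activate caspases when bound by their ligands, and the BCL2 family controls the permeability of mitochondria. FAS, the receptor of FAS ligand, had 139.5, 122 and 114 scaled counts in TQ and 666, 593 and 678 in SARB. TQ stood at the level of control (146 ± 23.7) and SARB at that of 5-FU (638 ± 8.21), and the log2 fold change was 2.38 (standard error 0.13) with an adjusted p of 1.17e-11. TNFRSF10C, a decoy receptor of TRAIL that lacks the death domain, had 68.5, 77.1 and 83.6 in TQ and 404, 284 and 344 in SARB (log2 fold change 2.16). TNFRSF10B, a TRAIL receptor that does signal death, had a log2 fold change of 0.89 (adjusted p = 9.76e-05). These were the 3 of 15 death receptor and caspase genes that were called, all higher (20%, against 13.8% of all genes), with a list median of 0.52. With negative probes subtracted 1 further member was called lower. TNFRSF10A, another TRAIL receptor that signals death, had a log2 fold change of 0.43 and was not called.

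Of 6 genes of the BCL2 family, BAX and BAD were called higher (33.3%, against 13.8% of all genes) and 0 lower. The list median was 0.66. BAX is also among the damage-induced genes counted above. BAX, which forms pores in the outer mitochondrial membrane, had 477, 456 and 505 scaled counts in TQ and 1511, 1947 and 1762 in SARB, with control at 653 ± 75.7 between them. SARB exceeded TQ by 1.86 (standard error 0.13) in log2, with an adjusted p of 4.68e-10. BAD, a sensitizer that binds the survival members, had 125, 137 and 147 in TQ and 226, 303 and 209 in SARB, both below the control mean of 341 ± 84.1. BCL2L1, which encodes the survival protein BCL-xL, had a higher level in every SARB sample as well, at 1.48-fold (adjusted p = 0.00115), just short of the fold threshold.

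The lower end was led by heat shock genes. Heat shock proteins are chaperones, and the inducible ones are switched on by the transcription factor HSF1 when proteins misfold, through heat shock elements in their promoters. Of 5 such genes on the panel, 4 were called lower in SARB and 0 higher (80% lower, against 5.62% of all genes). The median log2 fold change was -2.11. The promoters of the inducible genes HSPA1A and HSPA6 are shown because these had the largest differences of the list. Each line gives the 150 bases before the annotated start from RefSeq (GRCh38.p14, plus strand), 5′ to 3′, at chr6:31815393-31815542 for HSPA1A and chr1:161524390-161524539 for HSPA6, and capitals mark the letters GAANNTTC, the core of a heat shock element, searched on both strands.
HSPA1A: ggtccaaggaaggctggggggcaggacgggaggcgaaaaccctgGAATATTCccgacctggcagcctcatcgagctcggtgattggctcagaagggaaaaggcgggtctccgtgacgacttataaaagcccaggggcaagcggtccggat
HSPA6: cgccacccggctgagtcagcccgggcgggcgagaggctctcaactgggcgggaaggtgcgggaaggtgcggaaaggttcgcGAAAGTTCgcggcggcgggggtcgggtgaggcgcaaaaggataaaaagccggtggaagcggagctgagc
The same letters were found in 1144 of 35116 promoter windows of this length (3.26%), and not in the windows of HSPA2, HSPB1 and HSP90B1. A match describes the sequence and does not show a bound site.

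HSPA1A encodes the stress-inducible HSP70. Its scaled counts were 416, 253 and 329 in TQ and 28.0, 41.8 and 4.92 in SARB, with control at 26.4 ± 4.68 and 5-FU at 38.9 ± 10.4. The TQ samples were thus the high ones among all 4 groups. The gene was above background in only 1 of 3 control samples, so its control mean is not told apart from background. The log2 fold change was -3.96 (standard error 0.41) with an adjusted p of 1.54e-07, and it was -3.25 without SARB replicate 3 and -4.56 without SARB replicate 2. SARB replicate 3 was not above background for this gene, and the probe cannot be taken to tell HSPA1A from HSPA1B, whose sequence is almost the same.

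HSPA2, an HSP70 best known from the testis, had 120.0, 70.9 and 85.3 scaled counts in TQ and 24.1, 25.6 and 14.8 in SARB, with control at 20.9 ± 7.32, above background in 1 of 3 samples (log2 fold change -2.11, adjusted p = 3.72e-05). HSPA6, an HSP70 that is almost silent without stress, had 26.9, 40.7 and 42.6 in TQ, all above background, and 4.82, 10.8 and 2.95 in SARB, none above background, so its fitted change of -2.72 depends on how low counts are treated. HSP90B1, the chaperone GRP94 of the endoplasmic reticulum, had 2759, 2616 and 1741 in TQ and 1584, 1042 and 1175 in SARB, with a log2 fold change of -0.90 (adjusted p = 0.000755). SARB replicate 2 was not above background for HSPA2. For all 4 genes every SARB sample lay below every TQ sample. HSPB1, the small heat shock protein HSP27, had a log2 fold change of -0.44 and overlapping samples.

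Stress-responsive transcription factors followed the same direction in part. FOS, which forms the AP-1 factor together with JUN, had 749, 821 and 894 scaled counts in TQ and 77.1, 105 and 71.4 in SARB, with 126 ± 19.2 in control and 97.6 ± 15.2 in 5-FU. The study reports a strong upregulation of FOS under Combi, a group that is not compared here. Among TQ, SARB, control and 5-FU, only TQ stood high, and the SARB samples lay below the control mean. This was a log2 fold change of -3.32 (standard error 0.19), or 9.96-fold, with an adjusted p of 1.17e-11. DDIT3, which encodes CHOP, a factor of the unfolded protein response, had 1719, 1622 and 1328 in TQ and 694, 585 and 467 in SARB, with control at 894 ± 239 between the groups (log2 fold change -1.42). MYC, the proliferation factor, had 2597, 2485 and 2307 in TQ and 1433, 1077 and 1161 in SARB and a log2 fold change of -1.01 (adjusted p = 2.55e-06).

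JUN, the partner of FOS, went the other way, with 66.1, 59.2 and 59.7 scaled counts in TQ and 102, 171 and 122 in SARB (log2 fold change 1.09, adjusted p = 0.000341). Of 7 genes listed as AP-1 and immediate-early, with DDIT3 counted among them, 3 were therefore lower and 1 higher. These shares of 42.9% and 14.3% stood against 5.62% and 13.8% of all genes, with a list median of -0.02. GADD45B, a stress sensor that feeds the p38 and JNK kinases, had 774, 585 and 662 in TQ and 222, 213 and 193 in SARB, without overlap and with control at 162 ± 41.4. The difference was -1.68 (standard error 0.16) in log2 with an adjusted p of 4.22e-08, while its relative GADD45A, at 977, 987 and 799.8 in TQ and 1162, 860.2 and 1202 in SARB, was alike within 1.5-fold. GADD45G was at or near background in both groups, with a fitted log2 fold change of -1.67 that was not called. With TMM normalization, the size factors of DESeq2, cartridge as a block or negative probes subtracted, 2 of the 3 GADD45 genes were called lower. The same count was found without TQ replicate 3 and without SARB replicate 2.

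Among targets and brakes of ERK signaling, 4 of 11 were called higher (36.4%, against 13.8% of all genes) and 0 lower. The median was 0.37, and the number higher was 2 without TQ replicate 2, TQ replicate 3 or SARB replicate 2. DUSP5, a nuclear phosphatase of ERK, had 3087, 3045 and 2942 scaled counts in TQ and 5631, 4983 and 4813 in SARB, all 6 above the control mean of 1200.4 ± 152 (log2 fold change 0.77, adjusted p = 9.15e-06). DUSP4, a related phosphatase, had 308, 284 and 298 in TQ and 544, 581 and 445 in SARB (log2 fold change 0.82). The calls of DUSP8 and ETV1, with log2 fold changes of 0.76 and 0.60, were lost with TMM normalization.

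Histone H3 genes were among the most abundant transcripts that differed. The replication-dependent ones are transcribed in S phase into RNA without a poly(A) tail, and these clustered genes share much of their coding sequence, so a probe may also capture close copies. HIST1H3H had 23424, 21537 and 21102 scaled counts in TQ and 2769, 2293 and 1323 in SARB. TQ lay near control, at 25646 ± 7337, and SARB near 5-FU, at 2512 ± 139.7. The log2 fold change was -3.37 (standard error 0.22), 10.4-fold, with an adjusted p of 6.27e-11. HIST1H3B had 11171, 9823 and 10254 in TQ and 3317, 3593 and 1473 in SARB, against 18077 ± 2881 in control and 2729.7 ± 334 in 5-FU (log2 fold change -1.90, adjusted p = 1.31e-06). SARB replicate 3 was the lowest sample in both genes.

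Both promoters are shown because these genes were lower together and hold the same pair of elements. The lines give the 150 bases before the start from RefSeq (GRCh38.p14), at chr6:27809901-27810050 on the plus strand for HIST1H3H, now named H3C10, and at chr6:26032100-26032249 on the minus strand for HIST1H3B, now H3C2. Capitals mark CCAAT and TATAAA, searched on both strands.
HIST1H3H: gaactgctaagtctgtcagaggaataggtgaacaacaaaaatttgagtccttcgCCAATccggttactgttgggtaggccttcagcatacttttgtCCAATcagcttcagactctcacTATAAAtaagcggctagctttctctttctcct
HIST1H3B: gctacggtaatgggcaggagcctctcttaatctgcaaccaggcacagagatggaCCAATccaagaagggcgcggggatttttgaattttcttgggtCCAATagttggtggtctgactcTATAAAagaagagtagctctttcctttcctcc
Each window holds CCAAT 2 times and TATAAA 1 time. Over 35116 promoter windows of this length, 23.5% hold CCAAT and 6.71% hold TATAAA. The window of HIST1H3B also holds GAANNTTC, outside the capitals. Among H3 genes that were not called, HIST1H3G holds CCAAT but not TATAAA in its window. H3F3A holds CCAAT in 2 of 4 windows and TATAAA in none. A match describes the sequence and does not show a bound site.

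Of the other H3 genes, HIST1H3G had a log2 fold change of -0.10 that was not called. H3F3A, which encodes the replication-independent variant H3.3, had 2921, 3137 and 3044 scaled counts in TQ and 2999, 3496 and 3304 in SARB, and its interval of -0.11 to 0.32 lay within 1.5-fold. H3F3C, a further H3.3-like gene, had 11166, 11589.8 and 11571 in TQ and 10201, 10326 and 8545 in SARB, an interval of -0.45 to -0.03 and thus also a difference under 1.5-fold. In these samples 2 of 5 H3 genes were called lower (40%, against 5.62% of all genes) and 0 higher, with a median of -0.24.

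Cell cycle genes moved both ways. Of 22 cyclins, cyclin-dependent kinases and inhibitors, 3 were called lower and 2 higher (13.6% and 9.09%, against 5.62% and 13.8% of all genes). The median was 0.14, and the number lower was 5 without SARB replicate 1 and 6 with TMM normalization. CCNB1, the cyclin of mitotic entry, had 3677, 3656 and 3704 scaled counts in TQ and 1385, 1248 and 1178 in SARB, with a log2 fold change of -1.53 (standard error 0.10) and an adjusted p of 1.73e-10. The 3 TQ samples differed from each other by little, and all SARB samples lay far below them. CCNA2, the cyclin of S phase and G2, had 1985, 2141 and 2021 in TQ and 1210.0, 1243 and 1421 in SARB (log2 fold change -0.67). CDKN1B, which encodes the inhibitor p27, had 110.2, 117 and 107 in TQ and 56.9, 68.8 and 48.7 in SARB, so that p27 was lower (-0.98, adjusted p = 0.00171) where p21 was higher. CCNE2, a cyclin of the entry into S phase, was higher, with a log2 fold change of 0.74.

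Of 20 replication genes, 3 were called lower and 2 higher (15% and 10%, against 5.62% and 13.8% of all genes). In 9 the intervals lay within 1.5-fold, and the median was -0.03. Without TQ replicate 1 the number lower was 1. MCM5 and MCM7, subunits of the replicative helicase, had log2 fold changes of -1.12 and -0.60, and MCM5 had 379, 448 and 321 scaled counts in TQ and 210.2, 143 and 176 in SARB. POLD4, a small subunit of DNA polymerase delta, was higher along with PCNA (0.77, adjusted p = 0.00249). Of 36 DNA repair genes, 4 were higher and 3 lower (11.1% and 8.33%, near the shares over all genes). The number higher was 2 without TQ replicate 2 or SARB replicate 2, 13 genes lay within 1.5-fold, and the median was -0.04. UBE2T, the ubiquitin-conjugating enzyme of the Fanconi pathway, had a log2 fold change of -0.83 and MDC1, a mediator at DNA breaks, of -0.74.

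Some genes of cell adhesion were higher in SARB, led by laminin and integrin genes. LAMA3 and LAMB3 encode laminin chains that anchor epithelial cells to the basement membrane, where laminins are bound by integrins that contain ITGA3 or the pair of ITGA6 and ITGB4. All of these 5 genes were called higher. LAMA3 had 22.0, 22.2 and 23.9 scaled counts in TQ and 218, 185 and 241 in SARB, with 35.7 ± 6.75 in control and 335 ± 26.1 in 5-FU. Control was above background for LAMA3 in 1 of 3 samples, so TQ and control cannot be ordered for this gene. The 3 SARB samples lay far above the 3 TQ samples, all 6 above background, and the log2 fold change was 3.25 (standard error 0.18) with an adjusted p of 1.17e-11. LAMB3 had 215, 232 and 167 in TQ and 762, 613 and 527 in SARB, but a control mean of 87.4 ± 16.0, below all TQ samples (log2 fold change 1.61).

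ITGA3 had 791, 845 and 863 scaled counts in TQ and 2404, 2124 and 1972 in SARB (log2 fold change 1.38, adjusted p = 1.04e-07). ITGA6 had 864, 913 and 931 in TQ and 1898, 1964 and 1814 in SARB (1.07), and ITGB4 had a log2 fold change of 1.24. The groups did not overlap in any of these integrin genes. PLAU, the urokinase that activates plasmin at the cell surface, had 541, 494 and 447 in TQ and 2128, 1649 and 2015 in SARB, with control at 635 ± 228 (log2 fold change 1.97, adjusted p = 1.12e-07). Over 41 laminin, integrin and matrix genes, 10 were called higher (24.4%, against 13.8% of all genes) and 0 lower, with a median of 0.52. Only 17 of the 41 were above background in all 6 samples, and the number called higher was 14 without SARB replicate 3 and 7 without TQ replicate 2.

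Of 10 epithelial genes, 8 were called higher (80%, against 13.8% of all genes) and 0 lower. They include CDH1, which encodes E-cadherin of the junctions between epithelial cells, with 137, 116 and 152 scaled counts in TQ and 351, 332 and 362 in SARB against 311 ± 156 in control (log2 fold change 1.40, adjusted p = 6.49e-05). Of 6 adhesion genes that the study names, ITGA6, LAMA3, LAMB3, NOTCH1 and TGFB1 were higher in SARB than in TQ and THBS1 was not called. As the study chose these genes on the same samples, their count is not independent evidence of a direction.

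The Notch pathway passes signals between neighboring cells from Jagged and Delta ligands to Notch receptors. Of 19 of its genes, 5 were called higher (26.3%, against 13.8% of all genes) and 0 lower, with a median of 0.34. The call of DTX4, 1 of the 5, held in only 2 of 18 alternative settings. The number higher was 3 with the size factors of DESeq2. In that setting, with TMM normalization and without SARB replicate 2, 1 member was called lower. Among the receptors, NOTCH3 had 29.4, 29.6 and 32.4 scaled counts in TQ and 119, 101 and 90.1 in SARB, with control at 89.5 ± 23.9 (log2 fold change 1.75, adjusted p = 2.75e-06), so the TQ samples were the low ones. NOTCH1 had 157, 138 and 136 in TQ and 286, 287 and 174 in SARB (0.79), and NOTCH2 was alike within 1.5-fold. The ligands JAG1 and JAG2 had log2 fold changes of 0.72 and 0.84. HES1, a target gene of the receptors, was not called, with a log2 fold change of -0.47.

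In the WNT pathway secreted ligands bind Frizzled receptors and spare beta-catenin from degradation, and beta-catenin then activates target genes with TCF factors. Of 75 genes, 11 were called higher and 5 lower (14.7% and 6.67%, near the shares over all genes), with a median of 0.32. The number higher was 7 with the size factors of DESeq2, and the number lower was 3 without TQ replicate 2 or SARB replicate 2. WNT16, a secreted ligand, had 286, 339.7 and 380.3 scaled counts in TQ and 542, 639 and 694 in SARB, all below the control mean of 1147 ± 241 (log2 fold change 0.89, adjusted p = 0.00013). WNT7B had 41.6, 29.6 and 35.8 in TQ and 93.5, 131 and 107 in SARB (1.69, adjusted p = 2.22e-05). WNT10B, WNT2 and WNT7A were also called, the last pair with TQ samples that were all below background. The call of WNT2 held in 6 of 18 alternative settings, that of WNT7A in 13 and that of WNT10B in 16. DKK1, a secreted inhibitor that binds the co-receptor LRP6, had 761, 910.1 and 931 in TQ and 1602, 1849.8 and 1333 in SARB (0.87).

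AXIN2, a feedback inhibitor and classical target of beta-catenin, had 97.9, 92.5 and 118 scaled counts in TQ and 38.6, 52.6 and 45.3 in SARB, with TQ at the level of control (103 ± 19.5). SARB differed from TQ by -1.17 (standard error 0.22) in log2, with an adjusted p of 0.000389. RNF43, a ubiquitin ligase that removes Frizzled receptors and is also a target of the pathway, had 132, 84.5 and 58.0 in TQ and 44.3, 45.8 and 31.0 in SARB (-1.18, adjusted p = 0.00318). FZD7, a Frizzled receptor, was lower as well (-0.62). CTNNB1, which encodes beta-catenin, had 2659, 2639 and 2696 in TQ and 2651, 2773 and 3369.6 in SARB, and its interval of -0.09 to 0.37 lay within 1.5-fold. Both groups were below the control mean of 4154 ± 258.

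Of 12 genes that the study names for WNT, AXIN2, ID2, MYC and PRKACB were lower in SARB than in TQ, WNT16 was higher and 7 were not called. The study reports WNT16, TBL1XR1, RAC1, PPP3CA, PPP3CB, PRKACB and CTNNB1 as lower under both TQ and SARB. It reports AXIN2, DKK2, FGF9, ID2 and MYC as reduced by RT-qPCR. Neither report states a difference between SARB and TQ. As the study worked from these samples, this count too is no independent evidence. PRKACB, a catalytic subunit of protein kinase A, had 546, 575 and 435 in TQ and 310.4, 212 and 406 in SARB (-0.73), and its call was lost with the size factors of DESeq2, without TQ replicate 2 and without SARB replicate 2. RAC1, like CTNNB1, was alike within 1.5-fold. TBL1XR1, PPP3CA and PPP3CB had log2 fold changes of 0.32, 0.52 and -0.39 and were not called, and DKK2 and FGF9, both at low counts, were not called either, with log2 fold changes of -0.18 and -0.63.

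Of 14 genes of colon stem cells and differentiation, 5 were called lower and 1 higher. These shares of 35.7% and 7.14% stood against 5.62% and 13.8% of all genes, with a list median of -0.41. Besides AXIN2, RNF43 and MYC, the lower genes were ID1 and ID2, inhibitors of basic helix-loop-helix factors. ID1 had 1870.4, 1882 and 1980.0 scaled counts in TQ and 1231, 1317 and 832 in SARB (-0.77, adjusted p = 0.000212), and ID2 had 776, 969 and 1003 and 572, 646 and 478 (-0.71). All 6 samples lay below the control means of 2927 ± 215 for ID1 and 1126 ± 96.2 for ID2, and the call of ID1 was lost without SARB replicate 3. PROM1, which encodes the stem cell marker CD133, is given here because the study followed that marker, mainly as protein at a later time. The study also counts PROM1 among genes downregulated under SARB. The values here are RNA at 24 h and set SARB against TQ, which is a different comparison. PROM1 had 181, 122 and 113 in TQ and 134, 149.7 and 127 in SARB, alike within 1.5-fold (-0.35 to 0.37).

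BMP and TGF-beta ligands signal through SMAD factors, of which the ID genes are targets. Of 34 genes of this family, 4 were called higher and 3 lower (11.8% and 8.82%, against 13.8% and 5.62% of all genes). The median was 0.32, and the number higher was 2 without SARB replicate 2. BMP4 had 1018, 1093 and 989 scaled counts in TQ and 611, 537 and 458 in SARB, with TQ at the control level of 1027 ± 166 (log2 fold change -0.95, adjusted p = 1.83e-05). TGFB1 had 233, 234 and 171 in TQ and 367, 489 and 424 in SARB (1.00, adjusted p = 0.000173).

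In PI3K signaling, PI3 kinases make a membrane lipid that activates AKT. Of 27 genes, 5 were called higher and 1 lower (18.5% and 3.7%, against 13.8% and 5.62% of all genes). The median was 0.20. The kinase subunits PIK3CB and PIK3R2 had log2 fold changes of 0.70 and 0.86, and DDIT4, a stress-induced inhibitor of mTOR, had 142, 128 and 121 scaled counts in TQ and 217, 282 and 173 in SARB (0.77). EIF4EBP1, which restrains translation under the control of mTOR, was lower (-0.68, adjusted p = 0.0107). AKT1, AKT2, MTOR, PIK3CA and TSC1 all had intervals within 1.5-fold. Without TQ replicate 2, 3 of 29 genes of NF-kB and cytokine signaling were higher. With all samples, 6 were higher (20.7%, against 13.8% of all genes) and 0 lower. They were led by the transcription factor STAT3 with 316, 374 and 399 in TQ and 851, 736 and 633 in SARB (1.02, adjusted p = 7.31e-06) and by SOCS1, a feedback inhibitor of cytokine receptors (0.94).

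Not every expressed gene differed. In 135 of 730 genes (18.5%) the 95% interval of the fold change lay within 1.5-fold in either direction, and 453 genes were neither called nor bounded in this way. The 6 uncalled genes whose intervals reached least far from 0 were STMN1, a microtubule regulator (-0.22 to 0.22), MAPK8, the kinase JNK1 (-0.19 to 0.26), SMC3, a cohesin subunit (-0.27 to 0.19), EZH2, a histone methyltransferase (-0.27 to 0.23), PPP2R1A, the scaffold of phosphatase 2A (-0.27 to 0.18), and CDC7, a replication kinase (-0.27 to 0.26), all on the log2 scale. STMN1 had 2578, 2644 and 2558 scaled counts in TQ and 2756, 2746 and 2292 in SARB, both below the control mean of 4656 ± 96.1.

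FUBP1 and SETD2, which encode nuclear proteins, were also among the 12 genes with the largest differences downward. FUBP1, a DNA-binding activator of MYC, had 1014, 983 and 711 scaled counts in TQ and 352, 252 and 324 in SARB (-1.54, adjusted p = 2.29e-06). SETD2, the methyltransferase of lysine 36 of histone H3, had 526, 496 and 373 in TQ and 243, 166 and 172 in SARB, without overlap and with control at 284 ± 24.9 (-1.27, adjusted p = 7.30e-06).

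Because SARB holds a 5-FU part, the step from TQ to SARB was set beside the step from control to 5-FU. The 2 steps share no sample. In 5-FU 74 genes were called higher than control (10.1%) and 74 lower (10.1%). Of the 101 genes higher in SARB than in TQ, 47 were among the 74 higher in 5-FU (46.5% of the first list and 63.5% of the second), and 5 were lower in 5-FU. Of the 41 lower genes, 20 were among the 74 lower in 5-FU (48.8% and 27.0%), and 1 was higher. Across the 730 genes the log2 fold changes of the 2 steps had a Pearson r of 0.39, and 0.64 over the 407 genes with a mean of at least 50 scaled counts, as descriptions over genes that share samples and depth. Without SARB replicate 3 the value over all genes was 0.26, and without SARB replicate 2 it was 0.52.

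LAMA3 differed by 3.25 in the first step and 3.23 in the second, on the log2 scale. MDM2 gave 1.93 and 2.05, DDB2 1.96 and 1.93, FAS 2.38 and 2.12, and HIST1H3H -3.37 and -3.35. For these genes the difference between the steps did not pass the test, with adjusted p-values of 0.959, 0.596, 0.919, 0.375 and 0.958 in that order.

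**Figure D3:**
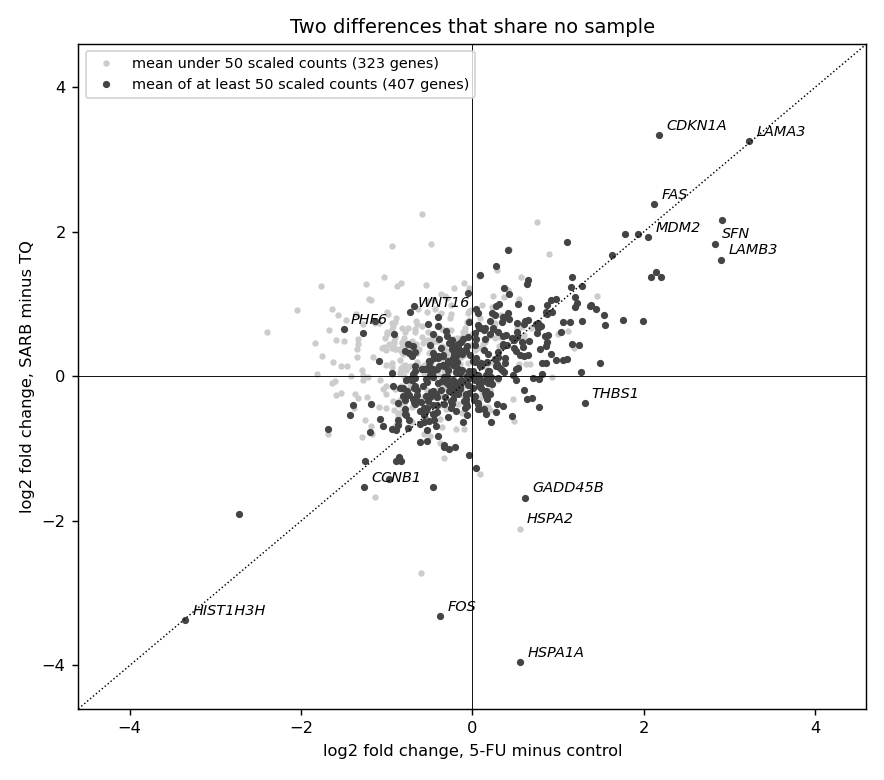
Log2 fold change of SARB minus TQ (vertical axis) against that of 5-FU minus control (horizontal axis) for the 730 genes, in black for the 407 genes with a mean of at least 50 scaled counts and in grey for the 323 under it, with the dotted line of equal steps. LAMA3, FAS, MDM2 and HIST1H3H lie near that line, while HSPA1A, FOS, HSPA2 and GADD45B lie far below it.

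The difference between the steps was tested directly in the same fit, as SARB minus TQ minus 5-FU plus control. It was above 0 in 49 genes (6.71%) and below 0 in 29 (3.97%), by the same rule, and 8 and 14 of them, in that order, were also called with TMM normalization and with cartridge as a block. Among the called genes below 0, the largest differences were those of HSPA1A, FOS, HSPA2 and GADD45B, while HSPA6, HSP90B1, HSPB1, DDIT3 and JUN were not called. HSPA1A had a difference of -4.51, FOS of -2.94, HSPA2 of -2.66 and GADD45B of -2.29, with adjusted p-values of at most 0.000852. For each of these, SARB was well below TQ while 5-FU differed from control by -0.37 for FOS, 0.55 for HSPA2, 0.56 for HSPA1A and 0.61 for GADD45B in log2.

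Of the 29 genes below 0, 13 had SARB below TQ and 5-FU above control, 11 had both steps above 0 and 5 had both below 0, on the fitted values. SFN gave 1.84 in the step from TQ to SARB and 2.83 in the step from control to 5-FU (difference -0.99, adjusted p = 0.000118). LAMB3 gave 1.61 and 2.91 (difference -1.29), and DUSP5 gave 0.77 and 1.99 (difference -1.23). In all 3 the TQ mean lay above the control mean. THBS1, the matrix protein thrombospondin 1, had 460.2, 332 and 462 scaled counts in TQ and 363, 318 and 279.5 in SARB against 98.7 ± 13.9 in control and 244 ± 13.8 in 5-FU (difference -1.68, adjusted p = 4.42e-05).

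Of the 49 genes above 0, 36 had SARB above TQ and 5-FU below control on the fitted values. Another 7 had both steps above 0, among them BAX and PCNA, and 6 had both below 0. The calls of BAX and PCNA were lost with TMM normalization and with cartridge as a block. WNT16 gave 0.89 and -0.73 (difference 1.62, adjusted p = 3.46e-05), DDIT4 gave 0.77 and -1.13 (difference 1.90), and ETV1, an ETS factor, gave 0.60 and -1.28 (difference 1.88). In all 3 the control mean was the highest of the 4 groups. CDKN1A was above 0 as well (1.16, adjusted p = 0.00405), with both steps above 0, a call that was lost with cartridge as a block, where the control is replicate 1 alone.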

How the data were processed

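The 6 SARB and TQ samples were taken from a series of 15 samples in 5 groups, measured with the nCounter PanCancer Pathways panel on 50 ng of total RNA. The authors deposited raw barcode counts, which were used as the main data, and normalized values, a signal on the scale of counts that served as an alternative. Per the study's methods the authors processed them with nSolver Analysis Software 3.0 and scaled to the geometric mean of the housekeeping genes. In every sample 100% of the deposited normalized values lay within 1% of the raw counts after subtraction of the geometric mean of the negative probes, a floor at 1 and scaling, a subtraction that hardly alters high counts and widens fold changes near background. A deposited table of the authors' fold changes and p-values against control was not used.

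Groups came from the sample titles. Raw counts of 730 genes from all 15 samples entered 1 fit in edgeR 4.0.16 (glmQLFit, glmQLFTest) under R 4.3.3, with library sizes from the geometric mean of 40 housekeeping genes, no covariate and Benjamini-Hochberg adjustment over the 730 genes. Total counts of 135017 to 568343 per TQ or SARB sample, with 219 to 344 genes under 20 counts, limit the precision of low genes. Calls needed an adjusted p no higher than 0.05 and a 1.5-fold difference. The sources do not say that the replicates were cultured on separate days, and the labels give no pairing. Alternatives were TMM, DESeq2 1.42.0, limma 3.58.1 on the normalized values with pseudocounts of 1 and 20, filters, background subtraction, the 6 samples alone, cartridge and replicate blocks, and each sample left out. The script was tested on simulated data.

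Named genes are the 12 called higher and 12 called lower with the largest changes among those with separate groups and a mean of at least 50 scaled counts in the higher group, up to 4 members of each of 26 lists by adjusted p, the genes that the study names, and the 6 uncalled genes whose interval of the log2 fold change reached least far from 0. Others were named after their values were seen: further members of a list, and PROM1. Some genes that the rule names are not reported here. The samples compared, the genes and the lists were chosen with earlier results of these data known, and no p was adjusted over a list alone. All 730 symbols matched a RefSeq symbol or synonym (GRCh38.p14), from which promoter sequences were copied.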

Additional observations from a re-analysis of the deposited data

Results flagged for a closer look

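The step from TQ to SARB and the step from control to 5-FU differed in the same fit for 49 genes above 0 and 29 genes below 0 (edgeR's quasi-likelihood test of the difference of both differences, adjusted p no higher than 0.05 and a size of 1.5-fold or more), and 185 genes had an unadjusted p under 0.05. The median of this difference over all 730 genes was 0.39 in log2 with housekeeping scaling, 0.07 with TMM normalization and 0.19 with cartridge as a block. Below 0, all 29 genes were also called with TMM and 14 with the block. Those 14, called under both, were HSPA1A, FOS, HSPA2, GADD45B, THBS1, SETD2, LAMB3, DUSP5, TNFRSF10D, FANCG, SFN, CCNE1, GADD45A and FGF2. Above 0, 16 were also called with TMM and 11 with the block, and the 8 called under both were PRKDC, TBL1XR1, TIAM1, GPC4, WNT16, ETV1, DDIT4 and PHF6. Genes of these lists that appear nowhere else were named after their values were seen. The doses of the groups differ (35 µM SARB, 40 µM TQ and 15 µM 5-FU), so the test compares these samples and not equal doses.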

How the results depend on the processing

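Over 18 alternative settings of the comparison of SARB with TQ, 49 of the 101 genes called higher and 27 of the 41 called lower kept their call in all, and no gene was called in the opposite direction in any. The number called higher lay between 70 (DESeq2 with its own size factors) and 115 (without SARB replicate 3), and the number called lower between 34 (housekeeping genes of at least 100 counts) and 61 (DESeq2 with its own size factors). With 1 sample left out the ranges were 73 to 115 and 36 to 49. Without the fold threshold 129 genes were higher and 75 lower. The labels number the replicates in each group but do not tie equal numbers to each other, and the deviations of equally numbered samples correlated at 0.24, -0.42 and -0.12, so the numbers were not taken to pair them. A fit with a replicate block on the 6 samples called 71 genes higher and 38 lower, against 89 and 40 on these samples without it. The genes above 0 in the difference of both steps were 16 with TMM, 12 with cartridge as a block and 35 to 80 with 1 sample left out, 80 being without SARB replicate 3, and those below 0 were 48, 14 and 24 to 38. The correlation of both steps over all genes was 0.26 to 0.52 with 1 sample left out, with 0.28 without TQ replicate 3 and 0.49 without TQ replicate 2.

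Of the 68 called genes that the naming rule covers, 54 kept their call throughout. Beside those named with their results, DDIT4, HSPA6, IRAK2, JAG1, MCM7, NTHL1, PIK3CB and SHC1 lost it in at least 1. The cause was not tested. Signs changed only in log2 fold changes near 0 that were not called. These were, with TMM and with the size factors of DESeq2, H3F3A (-0.00409 and -0.0321), RAC1 (-0.0317 and -0.0661), STMN1 (-0.12 and -0.15) and MAPK8 (-0.0752 and -0.10). STMN1 also gave -0.00263 with the replicate block, and -0.00998 and -0.00987 with limma. With housekeeping genes of at least 100 counts, SMC3 gave 0.0166, EZH2 0.0382, PPP2R1A 0.00936 and CDC7 0.0485. With 1 sample left out the ranges that crossed 0 were -0.71 to 0.18 for DKK2, -0.0435 to 0.085 for STMN1, -0.0263 to 0.0959 for MAPK8, -0.0817 to 0.0642 for EZH2 and -0.0613 to 0.0586 for CDC7. Genes under 20 counts, 219 to 344 per sample, cannot show small differences, and 3 samples a group limit all intervals.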

Other observations

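Of 34 chromatin regulators, 3 were called lower in SARB (8.82%, against 5.62% of all genes) and 2 higher (5.88%, against 13.8%), and 16 had intervals within 1.5-fold, with a median log2 fold change of 0.01. WHSC1, a methyltransferase of histone H3, had 1131, 1107 and 849 scaled counts in TQ and 583, 415 and 650.1 in SARB (-0.90, adjusted p = 0.00038), and NPM1, the nucleolar protein nucleophosmin, had 139.5, 121 and 167 and 54.0, 99.8 and 43.8 (-1.17, adjusted p = 0.002). Both groups of each gene were separate, and SMARCA4, the ATPase of a chromatin remodeler, passed the adjusted p but reached only 1.47-fold in the lower direction.

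Of 19 genes of the RAS, RAF and ERK core, 2 were called higher and 1 lower, with a median of -0.05. These shares, 10.5% and 5.26%, were near those over all genes (13.8% and 5.62%). SHC1, an adaptor of receptor kinases, had 1462, 1519 and 1347 scaled counts in TQ and 2339, 2223 and 2451 in SARB (0.70). Of 15 genes of the JNK and p38 cascade, only MAP3K12 was called, as higher (6.67%, against 13.8% of all genes). It had 110.2, 67.8 and 63.1 in TQ and 206, 133 and 111 in SARB, and its call was lost without TQ replicate 2. Of 12 calcineurin and protein kinase A genes, PRKACB alone was called, as lower (8.33%, against 5.62% of all genes). NGFR, a neurotrophin receptor used here as a non-epithelial marker, was the 1 called among 14 such markers (7.14%, against 13.8% of all genes). It had 78.3, 74.6 and 58.0 in TQ and 195, 216 and 169.8 in SARB (1.44, adjusted p = 1.13e-06). The 5-FU mean of NGFR was 297 ± 25.8 (SD, n = 3).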
